A study of Homo sapiens with 4 samples.

Results

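Described here are genes of early leukocytes and myeloid cells, 10 of the 17630 genes analysed: PTPRC, LAPTM5, ARHGDIB, CORO1A, LCP1, SRGN, AIF1, LYZ, TYROBP and FCER1G. They were picked by name, with their values in these 4 libraries already known, and all 10 have a row in every table. What follows is therefore a description of levels and differences, with no test. The CD45 gene PTPRC stood at 0.04 or less in each of the 4 libraries, and the other 9 genes had their highest value in the blood-forming cells of day 7.

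Leukocytes share a set of genes that few other cells use at a high level, and myeloid cells add genes of their own to it. CD45, encoded by PTPRC, is the surface phosphatase by which leukocytes are usually recognised, and it removes an inhibitory phosphate from Src family kinases. Around it act regulators of the actin skeleton, a proteoglycan that packs granules, and small adaptors whose ITAM motifs pass signals from receptors to the kinase SYK. In blood formation from pluripotent cells, CD43 comes before CD45 on the first blood cells.

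RNA came from H1, an established human embryonic stem cell line. The 4 groups, 1 library each, were undifferentiated H1 cells (hESC), APLNR+ MES sorted on day 2, CD31+CD34+ HEPs sorted on day 4 (HEP) and CD31+CD43+ HPCs sorted on day 7 (HPC). MES had received activin A (40 ng/ml) and BMP4 (50 ng/ml) for 2 days. HEP had received this and then VEGF (40 ng/ml) and bFGF (50 ng/ml) for 2 days, and HPC also VEGF, bFGF and SB-431542, an inhibitor of activin receptors, for 3 further days. A sort by flow cytometry is stated for the 3 differentiated groups and not for hESC. With 1 line and 1 library a group, no value has a replicate error and no difference has a replicate check.

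Values are the authors' normalised expression per gene, to 2 decimals. A difference is the log2 difference of (value + 1), which understates changes of low values. A gene is called higher or lower when that difference is at least 1 in size, which is 2-fold, and the higher library stands at 5 or more. The sequencing depth is unknown, so a listed 0 carries no upper limit. Values listed without library names are in the order hESC, MES, HEP, HPC. The 10 genes together summed to 19.3, 14.1, 35.98 and 306.2. Over all genes the sums lay between 306724 in HEP and 426980 in hESC. Of the antigens used to sort, APLNR reached 344.4 in MES, CD34 43.6 in HEP and SPN, the CD43 gene, 24.4 in HPC. PECAM1, the CD31 gene, reached no more than 1.83 in HEP and 7.49 in HPC. The GC content of transcripts moved with the differences. This was read over the 6367 genes that averaged 5 or more and had a GC content. From MES to HEP their median log2 difference was -1.87 in the 10% with the lowest GC content and 0.49 in the 10% with the highest. Values with this trend removed are given for the 10 genes where they change a call, and for some others.

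The promoters of these genes were read first for short sequences bound by blood transcription factors. RefSeq windows (GRCh38.p14, from 250 bases before to 50 after a start) were found for 8 of the 10 genes, and SRGN and LYZ had no entry. The ETS core GGAAGT, on either strand, lay in a window of 6 of these 8 genes: PTPRC, LAPTM5, ARHGDIB, LCP1, AIF1 and TYROBP. It was held by 22.8% of all 35116 windows listed. The longer form GAGGAAGT, typical of the ETS factor PU.1, contains that core. It lay in windows of LCP1, AIF1 and TYROBP, against 2.59% of all windows. The RUNX sequence TGTGGT lay in windows of LCP1, AIF1, TYROBP and FCER1G (13.1% of all windows), and TGCGGT in one of AIF1 (7.29%). Of the GATA sequences, TGATAA was found for ARHGDIB and AIF1 (7.53%) and AGATAA for AIF1 (10.3%), while the E-box CACGTG was found for none of the 8 (7.26%). AIF1 has 2 starts in the table and ARHGDIB 3, which gives these genes more windows for a match than the others. Such matches are descriptions of letters and not of binding.

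Stretches of 4 genes upstream of the start are shown, picked after the values were seen: that of PTPRC, the gene at or near 0 throughout, those of LAPTM5, already high in HEP, and of TYROBP, high in HPC alone, and that of LCP1, which holds the PU.1 form. Each is the longest run within 250 bases upstream of the start that lies outside exons of GENCODE 29, so matches nearer the start can fall outside it. They are chr1:198638790-198638967 (+ strand) for PTPRC, chr1:30757821-30758024 (- strand) for LAPTM5, chr19:35908296-35908545 (- strand) for TYROBP and chr13:46182325-46182427 (- strand) for LCP1, all in GRCh38.p14. Capitals mark the ETS core or the PU.1 form, which read ACTTCC or ACTTCCTC where they lie on the other strand.
PTPRC: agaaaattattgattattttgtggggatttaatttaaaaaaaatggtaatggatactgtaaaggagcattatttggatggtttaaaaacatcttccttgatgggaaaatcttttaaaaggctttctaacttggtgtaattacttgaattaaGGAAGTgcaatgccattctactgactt
LAPTM5: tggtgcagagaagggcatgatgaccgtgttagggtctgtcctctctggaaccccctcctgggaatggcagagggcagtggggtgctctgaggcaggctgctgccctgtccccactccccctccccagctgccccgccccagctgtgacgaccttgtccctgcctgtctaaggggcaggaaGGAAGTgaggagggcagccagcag
TYROBP: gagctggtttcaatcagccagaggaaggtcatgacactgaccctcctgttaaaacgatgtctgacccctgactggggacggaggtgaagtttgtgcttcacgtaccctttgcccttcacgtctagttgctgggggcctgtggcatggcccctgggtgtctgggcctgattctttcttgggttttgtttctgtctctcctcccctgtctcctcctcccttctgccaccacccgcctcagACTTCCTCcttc
LCP1: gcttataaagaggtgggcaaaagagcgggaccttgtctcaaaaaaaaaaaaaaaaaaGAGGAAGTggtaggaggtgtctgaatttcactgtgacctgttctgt

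The CD45 gene holds the ETS core in this window, as do 5 of the genes that were high in HPC. In PTPRC one match begins 99 bases upstream of the start, as shown, and another 57 bases upstream. The match of LAPTM5 begins 70 bases upstream, that of TYROBP 12 bases upstream and the PU.1 form of LCP1 193 bases upstream.

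PTPRC, the phosphatase CD45, was at 0.03 in hESC, listed at 0 in MES and HEP, and at 0.04 in HPC. The value in HPC is a few rounding steps above 0. The transcripts of PTPRC have a GC content of 39.9%, which lies among the lowest 10% (41.2% or less), a range in which the median difference from hESC to HPC was -1.83. With the GC trend removed PTPRC stood at 0.06 in HPC. That step divides each value by a factor, so a listed 0 stays 0 and a value this low stays near 0 by construction. SRGN (GC content 38.1%) and LYZ (41.4%), genes picked with their values known, stood at 4.44 and 11.6 in HPC. The part of GC content in the level of PTPRC was not tested.

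Each of the 10 genes had its highest value in HPC, and PTPRC stood apart from the other 9 in that this value was next to 0. Among all genes at 5 or more in any library, 15.1% were highest in HPC. From HEP to HPC 8 of the 10 were called higher and 0 lower, beside 3.01% of all genes called higher and 3.57% called lower. The 2 without a call were PTPRC and SRGN, whose 4.44 in HPC falls short of the minimum of 5. The choice of the 10 used these very values, so the share is not evidence that leukocyte genes as a class are higher. The median log2 difference of the 10 was 2.65, beside 0 over all genes. From hESC to HPC, which shares its libraries with the other comparisons, 8 were called higher and 0 lower, beside 4.67% and 15.8% of all genes. With the GC trend removed 9 were called higher from HEP to HPC (2.68% of all genes higher, 3.53% lower) and 8 from hESC to HPC (6.4% higher, 6.65% lower), with 0 lower in either. In the latter SRGN gained a call and CORO1A lost it. In bulk libraries fewer cells with a transcript and less of it per cell cannot be told apart, and these values do not say how many HPC cells held each RNA.

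**Figure D1:**
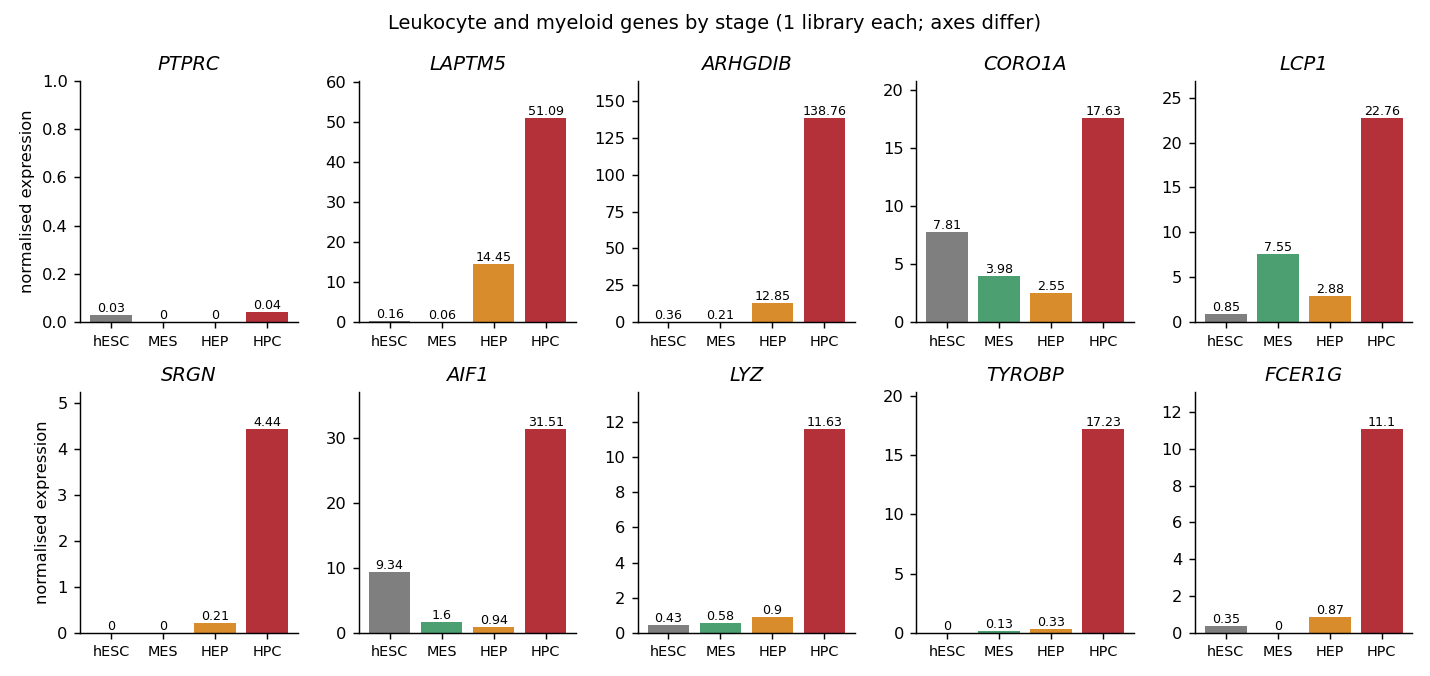
Normalised expression of each of the 10 genes (y axis, a scale of its own in each panel) in the 4 libraries (x axis), 1 library a bar and so without error bars. HPC has the tallest bar in every panel, though that of PTPRC reaches no more than 0.04, and CORO1A and AIF1 also stand at 7.81 and 9.34 in hESC.

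LAPTM5 and ARHGDIB were the 2 of the 10 called higher from MES to HEP. LAPTM5, a lysosomal membrane protein that lowers antigen receptors on the surface of lymphocytes, went from 0.16 (hESC) and 0.06 (MES) to 14.5 (HEP) and 51.1 (HPC). It was thus low in the first 2 libraries and already high in HEP, with log2 differences of 3.87 from MES to HEP and 1.75 from HEP to HPC. ARHGDIB, an inhibitor that keeps small GTPases in the cytosol of leukocytes, had values of 0.36, 0.21, 12.9 and 138.8, with log2 differences of 3.52 and 3.33. At this step 3.32% of all genes were called higher and 13.9% lower (3.68% and 4.97% with the GC trend removed, and 1456 genes higher and 1445 lower with scaling by median of ratios). Both calls held with each of the 4 other scalings, and removing the GC trend gave 4.07 and 3.80. HEP and HPC are also the libraries with high endothelial genes: the sum of 12 endothelial markers was 66.6, 88.9, 862.9 and 427.4, with 11 of the 12 at 1 or more in HEP and 10 in HPC. That sum was lower in HPC than in HEP, whereas both genes were higher in HPC, and its part in their levels was not tested.

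The other actin regulators were CORO1A, LCP1 and AIF1. CORO1A, a coronin that binds actin filaments in leukocytes, was measured at 7.81 (hESC), 3.98 (MES), 2.55 (HEP) and 17.6 (HPC). It was never near 0, was lowest in HEP, and was 6.91 times as high in HPC as in HEP. From hESC to HPC its log2 difference was 1.08, just past 2-fold, and with the GC trend removed it was 0.90 and not called.

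LCP1, or L-plastin, an actin-bundling protein of leukocytes, had values of 0.85, 7.55, 2.88 and 22.8. It had a first peak in MES, a lower value in HEP and its highest in HPC. It was the only one of the 10 called higher from hESC to MES (log2 difference 2.21), where 3.79% of all genes were called higher and 3.7% lower (4.1% and 2.19% with the GC trend removed, which kept this call). From MES to HEP it was called lower as deposited (-1.14), but not with any of the 4 other scalings, and with the GC trend removed the difference was -0.30. From HEP to HPC the difference was 2.61.

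AIF1, a calcium-binding actin regulator known as a macrophage and microglia marker, went from 9.34 in hESC down to 1.6 and 0.94 in MES and HEP and up to 31.5 in HPC. It was called lower from hESC to MES (-1.99), as no other of the 10 was, and had the largest log2 difference of the 10 from HEP to HPC (4.07). That rank depends on the 1 added to each value. With 0.1 added instead, TYROBP had the largest (5.33, against 4.93 for AIF1). CORO1A and AIF1 were thus the 2 of the 10 at 5 or more in undifferentiated cells. In GENCODE 29 no exon of another gene overlaps those of AIF1, while 1 gene on the opposite strand overlaps those of CORO1A, and likewise 1 those of LYZ. Whether the authors' counting used strand is not stated.

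SRGN and LYZ, the granule genes among the 10, reached 1 in HPC alone of these 4 libraries as deposited. SRGN, the core protein of serglycin, a proteoglycan that holds proteases and chemokines in granules, was listed at 0 in hESC and MES and stood at 0.21 in HEP and 4.44 in HPC. It was not called as deposited, but was called higher from HEP to HPC with 3 of the 4 other scalings (median of ratios, upper quartile and GC trend removed), and reached 7.39 in HPC with the GC trend removed. LYZ, the bacteria-lysing enzyme of monocytes and granulocytes, was at 0.43, 0.58, 0.9 and 11.6. It was under 1 in the first 3 libraries as deposited, though HEP stood between 1.04 and 1.83 with the 4 other scalings, and was 12.9 times as high in HPC as in HEP (log2 difference 2.73).

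The ITAM adaptors also came late. TYROBP, or DAP12, which pairs with activating receptors of myeloid and natural killer cells, was listed at 0 in hESC and stood at 0.13 in MES, 0.33 in HEP and 17.2 in HPC. FCER1G, the common chain of Fc receptors and of the platelet collagen receptor GP6, stood at 0.35 in hESC, was listed at 0 in MES, and stood at 0.87 in HEP and 11.1 in HPC. Both were under 1 until HPC as deposited (in HEP FCER1G stood at up to 1.08 with the 4 other scalings), with log2 differences from HEP to HPC of 3.78 for TYROBP and 2.69 for FCER1G.

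**Figure D2:**
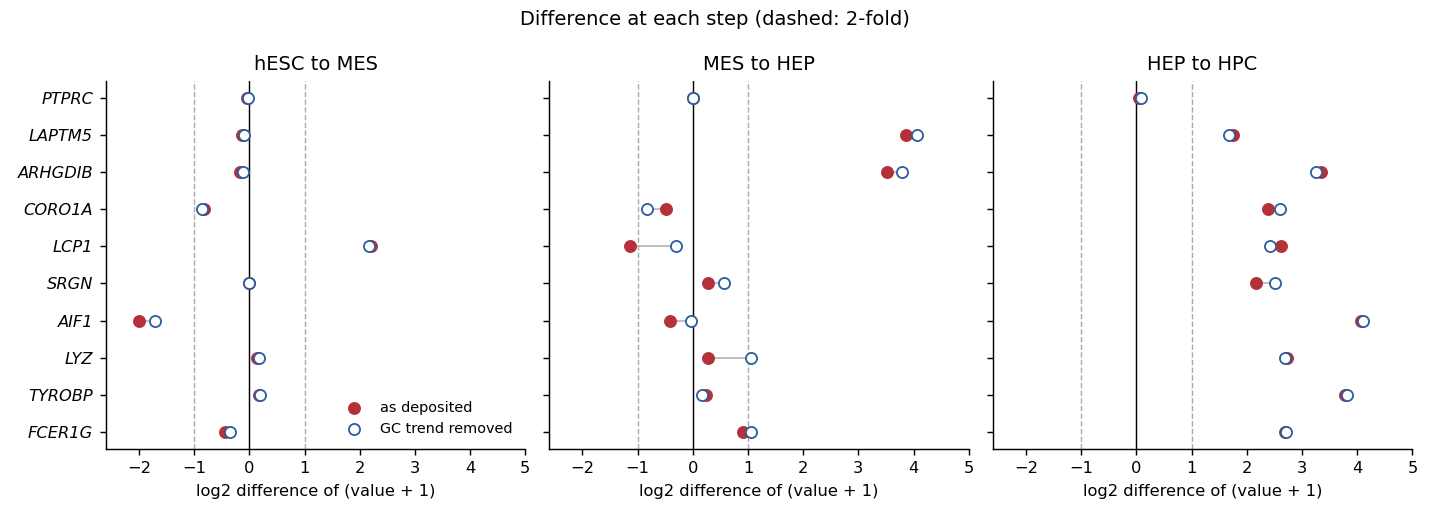
Log2 difference of (value + 1) (x axis, dashed lines at 2-fold) of each of the 10 genes (y axis) at the 3 steps, 1 panel each, with filled points for values as deposited and open points with the GC trend removed. LAPTM5 and ARHGDIB lie far to the right from MES to HEP (3.87 and 3.52 as deposited), and all but PTPRC lie beyond 2-fold from HEP to HPC on both scales.

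Most receptors listed with these adaptors stayed under 1. The list holds 30 partners of TYROBP or FCER1G and relatives of such partners, so its counts are not of partners alone. Of the 30, 24 had a row and 3 reached 1 in any library. From HEP to HPC 1 was called higher, a share near the 3.01% of all genes. That one was TREM2, a lipid-sensing receptor that signals through TYROBP, at 0.16 and 0.04 in hESC and MES, listed at 0 in HEP and at 9.38 in HPC. PILRB, an activating receptor, had values of 4.28, 4.99, 0.79 and 1.78 and was not called as deposited at any step, but with the GC trend removed it was called lower from MES to HEP (5.49 to 0.69). The Fc receptor FCGR2A, listed as such a relative, reached 1.10 in HPC. TREM1, FCGR1A and FCGR3A were listed at 0 in every library, FCER1A was at 0.57 and GP6 at 0.25 in HPC. The median log2 difference of the 24 from HEP to HPC was 0.04.

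Downstream of the adaptors and of CD45, some kinases of blood cells were higher in HPC and others were lower. Of 28 kinases, phosphatases and linked adaptors, 7 were called higher and 2 lower from HEP to HPC (median log2 difference 0.36). Of all genes 3.01% and 3.57% were called higher and lower at this step. From hESC to HPC 10 of the 28 were called higher and 2 lower, beside 4.67% and 15.8% of all genes. With the GC trend removed the counts were 7 and 3 (2.68% and 3.53% of all genes), and 11 and 1 (6.4% and 6.65%). SYK, the kinase that binds phosphorylated ITAMs, was at 0.87, 0.28, 0.34 and 5.39. BTK, a kinase of B and myeloid cells, was already high in HEP like LAPTM5: 0.15, 0.52, 14.2 and 44 in HPC. ZAP70, the relative of SYK used by T cells, peaked instead in HEP, at 58.9, and stood at 1.69 in HPC. LCK, the Src family kinase on which CD45 acts in T cells, was highest in hESC, at 71.9, and stood at 0.14 in HPC. Other Src family kinases, FYN (15.97 in HPC) and LYN (12.9), were present in all 4 libraries and not called from HEP to HPC. PTPRCAP, a small protein that binds CD45, stood between 0.71 and 2.57. PTPN6, the phosphatase SHP-1, stood at 36.3 in HPC against 4.35 in HEP and was called higher.

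Many other genes shared by leukocytes were also higher in HPC than in HEP. Of 36 listed, 34 had a row and 27 reached 1 in any library. From HEP to HPC 15 were called higher and 1, the chemokine receptor CXCR4 (12.9 to 5.74), lower, beside 3.01% and 3.57% of all genes, with a median log2 difference of 1.27 over the 34. FERMT3, which activates integrins in blood cells, went from 0.51 in hESC and 0.54 in MES to 37.1 in HEP and 157.8 in HPC. GMFG, an actin regulator, went through 0.38, 0.14, 16.2 and 80.4, and VAV1, an exchange factor for small GTPases, through 1.58, 0.06, 12.1 and 42.98. These 3 were called higher from MES to HEP as well, with CD44 and MYO1F, and none of the 34 was called lower there. CXCR4 joined them with the GC trend removed (log2 difference 1.92). From MES to HEP 3.32% of all genes were called higher and 13.9% lower (3.68% and 4.97% with the GC trend removed). NCKAP1L (0.80 to 19.1), PTPN7 (1.35 to 17.2) and RAC2 (3.24 to 17.2) were called higher from HEP to HPC alone among the 3 steps. ITGB2, the beta chain of leukocyte integrins, was at 3.68 in HPC and CD53 at 3.10, both below the minimum. The list was written with earlier results of these data known. It shares VAV1, INPP5D and PTPN6, all called higher from HEP to HPC, with the kinase and phosphatase list.

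**Figure D3:**
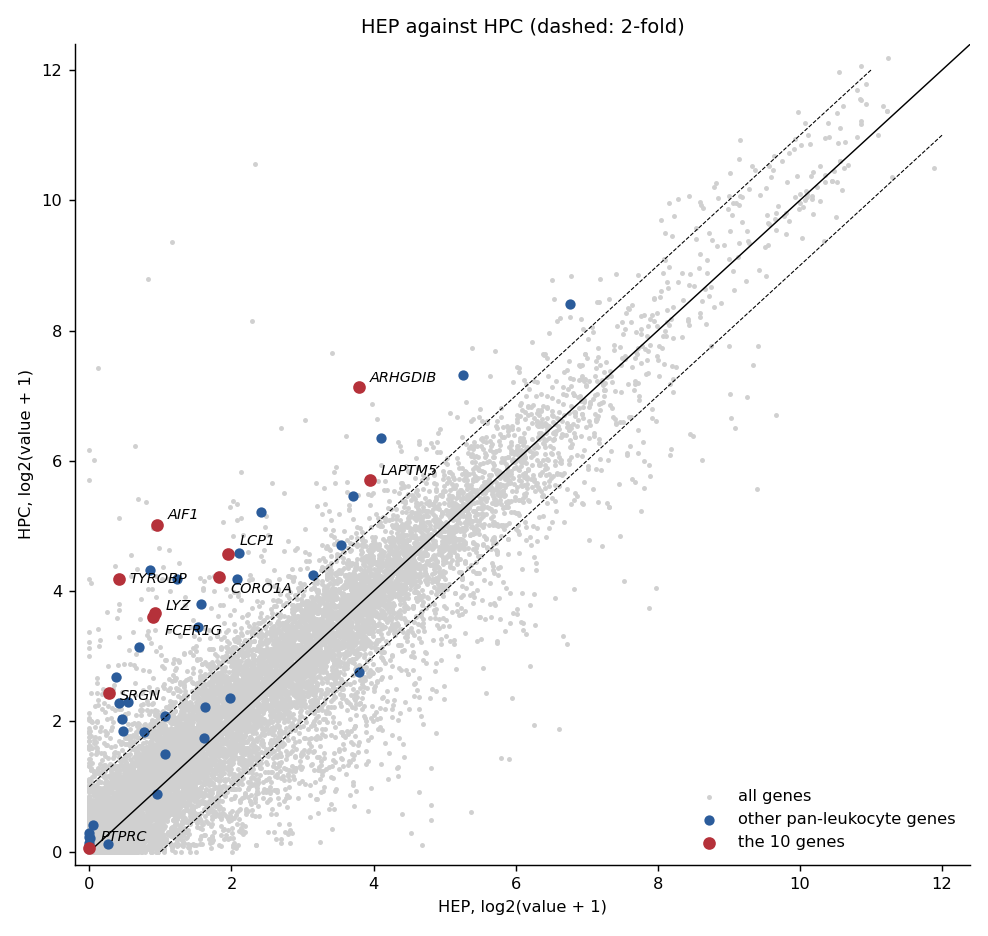
Log2(value + 1) in HEP (x axis) and HPC (y axis) for all genes (grey), 34 other leukocyte genes (blue) and the 10 genes (red, named); the solid line is equality and the dashed lines 2-fold. All of the 10 but PTPRC, which lies at the origin, are above the upper dashed line, as are the 15 other leukocyte genes called higher.

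Most genes that mark mature myeloid cells stayed at or near 0 in HPC. Of 34 listed macrophage and monocyte genes 23 had a row, and 2 of them were called higher and 0 lower from HEP to HPC: NCF4, a subunit of the phagocyte oxidase (0.02 to 16.5), and CD33, a myeloid lectin (0.27 to 5.42). Of all genes 3.01% were called higher and 3.57% lower at this step. The median log2 difference of the 23 was 0.03. CSF1R, the receptor for macrophage colony-stimulating factor, reached 3.72 in HPC. CD14 was at 0.02 and CD163 at 0.05 in HPC, and MRC1, FCN1 and the oxidase subunit CYBB were listed at 0 there. The 7 macrophage and monocyte markers with a row summed to between 0.07 and 0.11 in hESC, MES and HEP and to 4.46 in HPC, of which 3.72 was CSF1R.

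Of 27 other granule proteins and enzymes listed, 22 had a row and 3 stood at 5 or more in HPC. From HEP to HPC 2 were called higher and 0 lower, beside 3.01% and 3.57% of all genes. Both are known from other lineages than neutrophils: PRG2, the major basic protein of eosinophils (0.77 to 15.4), and PF4, a platelet chemokine (0.87 to 30.3). The third, CTSC, a protease that activates others in granules, was at 185.6 in hESC and 58.6 in HPC and was not called from HEP to HPC. Neutrophil granule proteins were low, with MPO, the peroxidase of neutrophil granules, at 0.08, the protease PRTN3 at 0 and the protease CTSG at 2.37 in HPC. HDC, the histamine-forming enzyme of mast cells and basophils, was at 4.68 in HPC, and the mast cell tryptases TPSAB1 and TPSB2 were listed at 0. Of T, natural killer and B cell markers, CD79B stood out, at 30.2 in HEP and 15.99 in HPC, with PAX5 listed at 0 in both.

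**Figure D4:**
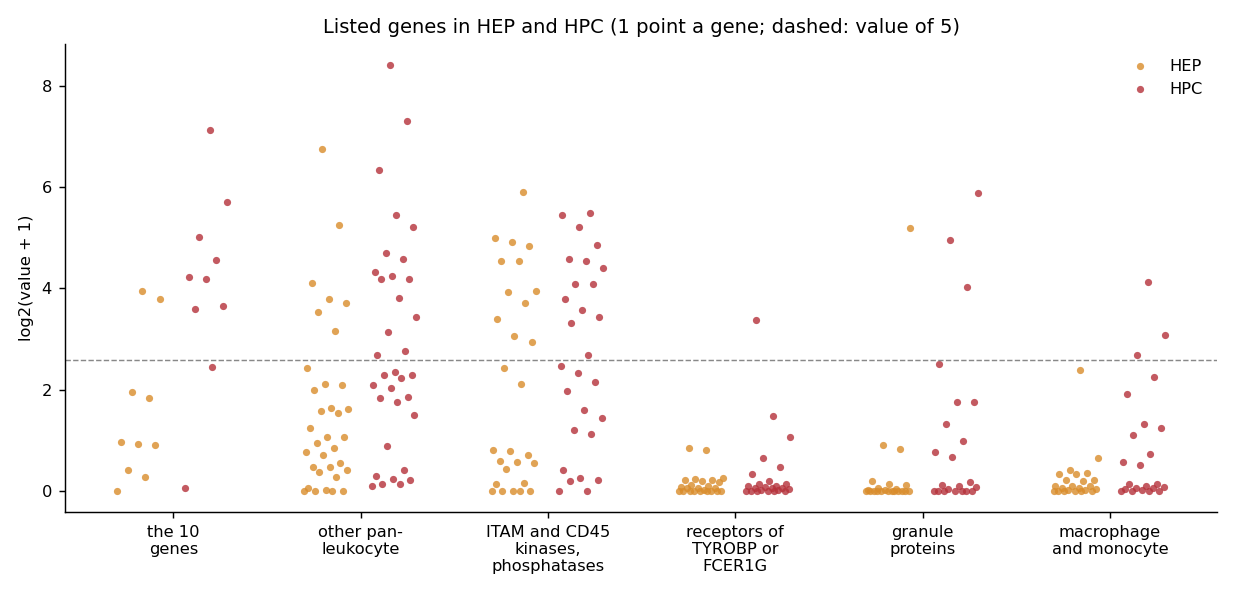
Log2(value + 1) of each gene (1 point) in HEP (orange) and HPC (red) for the 10 genes and 5 other lists (x axis); the dashed line marks a value of 5. In HPC 8 of the 10 genes, chosen with these values known, are above the line. So are 1 of 24 receptors and 3 each among 22 granule and 23 macrophage and monocyte genes. The 15 other leukocyte genes and 7 of the kinase and phosphatase list called higher from HEP to HPC are also above it. VAV1, INPP5D and PTPN6 are in both of these lists and counted in each.

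The summed levels of red cell and of platelet markers were also highest in HPC. The sum of 13 erythroid markers was 9.19, 13.4, 23.6 and 2847. In HPC 9 of these 13 stood at 5 or more and 11 at 1 or more, and 10 were highest there (not EPOR, AHSP and SLC4A1). The sum of 13 megakaryocyte and platelet markers was 8.42, 10.3, 11.5 and 511.01. In HPC 8 of these 13 stood at 5 or more, among them ITGA2B, the platelet integrin CD41, at 283.4, while CLEC1B (0.03) and PPBP (0.69) were under 1. FCER1G and SRGN are also known from platelets, and the part of these cells in their levels was not tested.

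The listed transcription factors of blood, which are not all leukocyte factors, were split between HEP and HPC. Of 28 listed, 9 were called higher and 1 lower from MES to HEP, and 6 higher and 1 lower from HEP to HPC. Of all genes 3.32% and 13.9% were called higher and lower at the first of these steps, and 3.01% and 3.57% at the second. With the GC trend removed the counts were 10 and 0 (3.68% and 4.97% of all genes), and 7 and 1 (2.68% and 3.53%). SPI1, which encodes PU.1, was listed at 0 in hESC and had 0.06 in MES, 0.19 in HEP and 11.9 in HPC. In the same 3 libraries TYROBP, LYZ and FCER1G were under 1 as deposited, whereas AIF1 stood at 9.34 in hESC and LCP1 at 7.55 in MES. A link of SPI1 with the levels of these genes was not tested. FLI1, an ETS factor of vessel and blood, was already at 10.3 in HEP and stood at 21.98 in HPC, a log2 difference of 1.03 that was called as deposited but not with the GC trend removed (0.74). Also called higher from HEP to HPC were MYB (2.20 to 17.7), GFI1B (7.28 to 20.96), NFE2 (5.50 to 89.7) and GATA1 (0.61 to 41.5). GATA1 and NFE2 are known from red cells and platelets. RUNX1 stood at 2.83 in HEP and 2.43 in HPC, below the minimum. CEBPA, a factor of granulocytes and monocytes, was between 0.74 and 1.11 in all 4 libraries, and CEBPE, IRF8 and IRF4 stayed below 1. Its relative CEBPB stood higher, at 4.21, 4.55, 5.01 and 9.94. CEBPB was called higher from hESC to HPC as deposited (1.07) but not with the GC trend removed (0.93). From HEP to HPC it was called higher only with that trend removed (1.14, against 0.86 as deposited).

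Relatives of these genes that other tissues use were read beside them. Of 17 listed, which also include the leukocyte adaptors HCST and CD247, 1 was called higher and 1 lower from HEP to HPC (median log2 difference -0.12), beside 3.01% and 3.57% of all genes. With the GC trend removed 1 was called higher and 2 lower, beside 2.68% and 3.53% of all genes. The plastins crossed: PLS3, the widespread form, went through 76.4, 43.7, 12.2 and 6.48, while LCP1 was highest in HPC. PLS3 was called lower from MES to HEP as deposited, but with the GC trend removed it stood at 25.8 and 27.4 and was not called, while its difference from HEP to HPC (27.4 to 10.6, log2 difference -1.29) then was. AIF1L, the relative of AIF1, was lower at each step (58.8, 35.8, 10.5 and 4.77) and kept its call from MES to HEP with the GC trend removed. ARHGDIA, the widespread relative of ARHGDIB, stood at 15.04, 38.1, 63.1 and 35.8, and CORO1C at 14.1, 35.02, 34.3 and 34.9. LAPTM4A and LAPTM4B were present throughout, at 14.9 and 112.7 in HPC, and not called at any step.

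**Figure D5:**
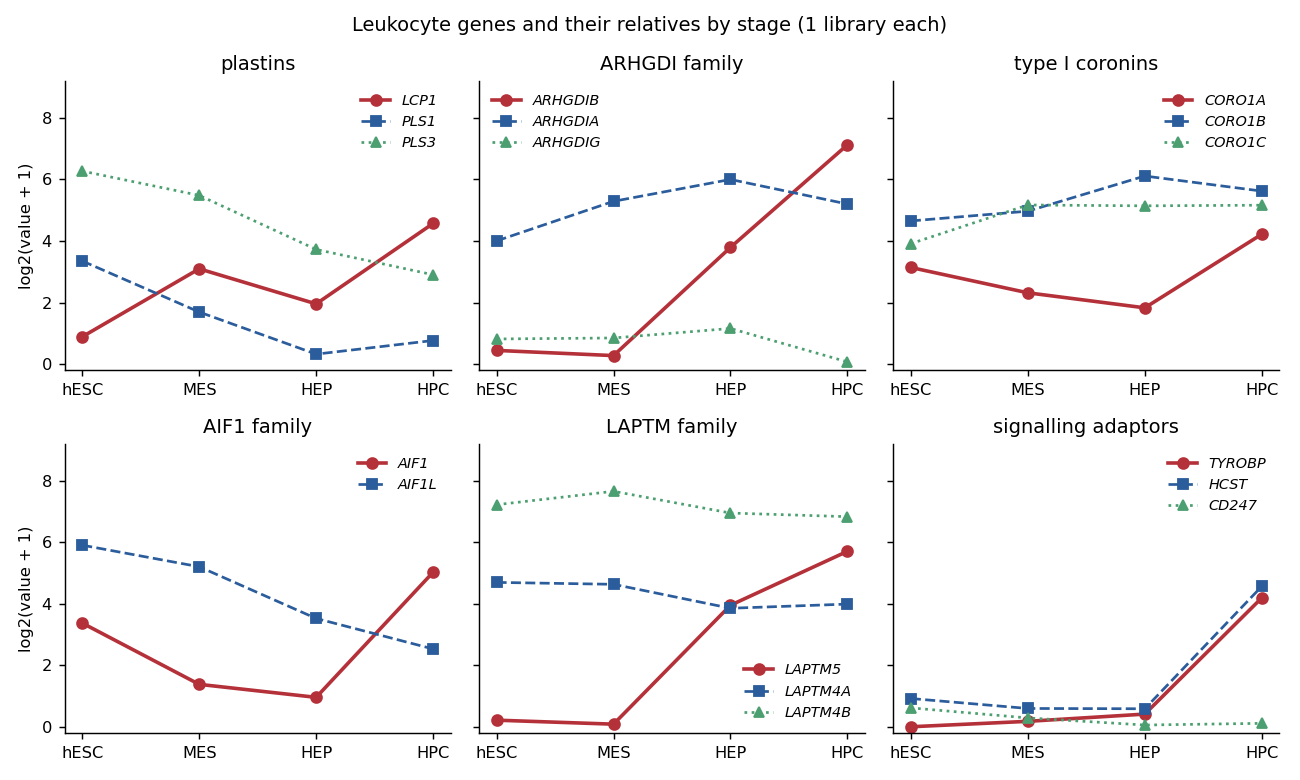
Log2(value + 1) (y axis) by library (x axis, 1 library a point) for 6 of the 10 genes (red) and their relatives (blue and green). LCP1, ARHGDIB, CORO1A, AIF1 and LAPTM5 are highest in HPC while their relatives are level or lower there than in an earlier library, whereas HCST follows TYROBP.

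HCST was the exception. It encodes DAP10, another small receptor adaptor, and is the nearest protein-coding gene to TYROBP on one side in RefSeq. Its values were 0.89, 0.51, 0.5 and 22.6, under 1 until HPC like those of TYROBP. Of the 20 nearest protein-coding neighbours of the 10 genes, 17 had a row, and 1, HCST, was called higher from HEP to HPC. SDC3, next to LAPTM5, was called lower (6.03 to 1). Of all genes 3.01% were called higher and 3.57% lower at this step. NCR3, next to AIF1, stood at 0.10 in HPC, and CPSF6 and YEATS4, on either side of LYZ, were not called. A neighbour each of PTPRC, LCP1 and SRGN had no row.

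The genes with the most similar profiles were found by the distance between log2(value + 1) over the 4 libraries among 8166 other genes at 5 or more in any library. With 4 points such a likeness is loose. For TYROBP they were ZBTB16 (distance 0.26) and MMRN1 (0.41), for LYZ LAT (0.32) and PRG2 (0.52), and for FCER1G LAT (0.52) and GP1BB (0.57). For LAPTM5 they were BTK (0.56) and RHAG (0.69), and for ARHGDIB GMFG (0.84) and NFE2 (1.36). For CORO1A they were LMO4 (0.47) and HAGHL (0.59), for LCP1 WNT5B (0.62) and COMMD3 (1.21), and for AIF1 RAB38 (0.90) and CYTL1 (0.91). PTPRC and SRGN, below 5 in every library, were not compared.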

How the data were processed

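Each library had 1 table of normalised expression values, which the authors made and deposited as 1 signal per gene. RSEM, BWA and Bowtie are named with hg19 in the submitters' processing notes. Their versions and roles, the annotation, the use of strand and the kind of measure (FPKM or TPM) were not given in the sources used here, and levels of different genes were not ranked. Of 17634 rows, 4 that shared names turned into dates were left out. The 10 genes and all lists were chosen with earlier results of these data known. Named genes were the 10, called genes of the lists, sort antigens and the 2 nearest profiles of each gene. Other listed genes were named after their values were seen.

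Differences and calls were computed in Python 3.11.15 with pandas 2.3.3 and numpy 2.4.6, at a pseudocount of 1. GC content was the median over a gene's protein-coding transcripts in GENCODE 29, matched for 17434 genes (98.9%). To remove its trend, each library was divided by the running median deviation along GC content of genes averaging 5 or more. Other pseudocounts (0.1, 5), minimums (none, 20), a 4-fold threshold and 3 scalings (median of ratios, upper quartile, common total) were tried. The steps were tested on simulated data. With 1 library a group there was no test, and with no counts no interval.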

Additional observations from a re-analysis of the deposited data

How the results depend on the processing

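Of 240 log2 differences of the 10 genes recomputed with other pseudocounts or scalings, 227 kept their call, 13 changed it and 0 changed sign after a call. All 10 genes were highest in HPC under each scaling, though for PTPRC this rests on 0.04 in HPC against 0.03 in hESC as deposited. No paired analysis was possible because each group is 1 library. The other scalings shifted the median log2 difference of expressed genes (averaging 5 or more) by up to 0.57 from hESC to HPC and 0.52 from MES to HEP, in both cases with median of ratios. What the unknown depth allows at values near 0, PTPRC among them, cannot be stated.

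As deposited, the calls among all genes were 669 higher and 653 lower from hESC to MES, 585 and 2448 from MES to HEP, 530 and 630 from HEP to HPC, and 823 and 2778 from hESC to HPC. With a pseudocount of 5, 409 higher and 315 lower from hESC to MES, 1479 lower from MES to HEP, 291 higher and 378 lower from HEP to HPC and 1814 lower from hESC to HPC were called among all genes. With no minimum, 1028 higher from hESC to MES, 805 higher from HEP to HPC and 1244 higher from hESC to HPC were called among all genes. With a minimum of 20, 248 higher and 288 lower from hESC to MES, 288 higher and 831 lower from MES to HEP, 229 higher and 264 lower from HEP to HPC and 332 higher and 1126 lower from hESC to HPC were called among all genes. With a minimum of 20, 0 higher and 0 lower from hESC to MES, 0 higher and 0 lower from MES to HEP, 4 higher from HEP to HPC and 4 higher from hESC to HPC were called among the 10. At 4-fold, 274 higher and 121 lower from hESC to MES, 219 higher and 797 lower from MES to HEP, 134 higher and 173 lower from HEP to HPC and 383 higher and 1088 lower from hESC to HPC were called among all genes. At 4-fold, 0 lower from hESC to MES and 0 lower from MES to HEP were called among the 10. With median of ratios scaling, 1456 higher and 1445 lower from MES to HEP and 1593 higher and 1573 lower from hESC to HPC were called among all genes. With upper quartile scaling, 1075 higher from MES to HEP and 1379 higher and 1763 lower from hESC to HPC were called among all genes. With a common total, 360 lower from hESC to MES and 892 higher from MES to HEP were called among all genes. With the GC trend removed, 382 lower from hESC to MES, 866 lower from MES to HEP and 1159 lower from hESC to HPC were called among all genes. Of the 10 genes, 0 were called lower from MES to HEP with a pseudocount of 5 or with any of the 4 other scalings (median of ratios, upper quartile, common total, GC trend removed). A stricter minimum or fold calls fewer genes by its construction, and the cause of the other shifts was not tested.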
